A study of Mus musculus with 4 samples.

Results

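Pyruvate, the end product of glycolysis, can be burned in mitochondria or turned into lactate, and 10 genes that set this choice were compared between tumor repopulating cells (TRCs) and parental cells of the mouse melanoma line B16F1. The genes were taken by symbol from the 39179 Ensembl genes of the count tables. They comprise the pyruvate dehydrogenase kinases *Pdk1*, *Pdk2*, *Pdk3* and *Pdk4*, the pyruvate dehydrogenase subunit *Pdha1*, the lactate dehydrogenases *Ldha* and *Ldhb*, the monocarboxylate carriers *Slc16a1* and *Slc16a3*, and the mitochondrial pyruvate carrier subunit *Mpc1*. The data are poly(A) RNA-seq libraries, 2 of parental B16F1 cells and 2 of TRCs, and each group's libraries carry the numbers 1 and 3. Per the study, TRCs are cells of the same line that grew into spheroids in soft 3D fibrin gels and were freshly isolated from them, while the parental cells were kept in 2D culture. All 4 samples therefore share 1 cell line and no added drug or allele is named for any of them. Selection by the gel, its softness and growth in 3D cannot be told apart in this design. The labels do not say whether the 2 samples of a group came from separate cultures, so p-values measure only the spread between these samples.

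As background, the pyruvate dehydrogenase (PDH) complex converts pyruvate into acetyl-CoA inside mitochondria. The PDKs phosphorylate its E1 alpha subunit, encoded by *Pdha1*, and thereby switch the complex off, and the phosphatases encoded by *Pdp1* and *Pdp2* remove the phosphate. Lactate dehydrogenase interconverts pyruvate and lactate as a tetramer of A and B subunits, MCT1 (*Slc16a1*) and MCT4 (*Slc16a3*) carry lactate and pyruvate with a proton across the plasma membrane, and MPC1 pairs with MPC2 to bring pyruvate into mitochondria. *Pdk1*, *Ldha* and *Slc16a3* are textbook targets of the hypoxia-inducible factor HIF-1.

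Levels are given as CPM, which are read counts scaled to a common library size with edgeR's TMM factors, and groups were compared across all genes with edgeR's exact test and Benjamini-Hochberg adjustment (FDR). Of the 10 genes, 6 were higher in TRCs at FDR under 0.05, namely *Pdk1*, *Pdk2*, *Pdk3*, *Ldha*, *Ldhb* and *Slc16a3*, where 8.81% of the 11483 genes tested were called higher. No member was called lower (0 of 10), against 7.05% of all genes, with 0 also at an unadjusted p under 0.05, where 1517 of the 11483 genes were lower, and 0 in edgeR's quasi-likelihood test and DESeq2's Wald test. Those tests called the same 6 members higher. The quasi-likelihood test called 4.94% of all genes higher and 4.24% lower, and DESeq2 called 9.49% higher and 8.24% lower. In the quasi-likelihood test the FDRs of these 6 members ran from 0.00778 for *Pdk1* to 0.0328 for *Pdk2*. Each was larger than the FDR of the same gene in the exact test, so the strength of the evidence depends on the test. The 6 were also called without parental replicate 1 (9.39% of all genes higher and 7.44% lower), without parental replicate 3 (4.35% and 3.16%) and without TRC replicate 3 (4.37% and 2.36%), and 5 were called without TRC replicate 1 (4.39% and 2.34%). *Pdha1*, *Slc16a1* and *Mpc1* did not pass the test, and *Pdk4* had no count in any library and was not tested. Both TRC libraries lay above both parental libraries for 6 members and below them for 2, where 30.2% and 30.4% of all genes tested were separated in these ways. These are bulk samples, so more expressing cells and more RNA per cell cannot be told apart.

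**Figure D1:**
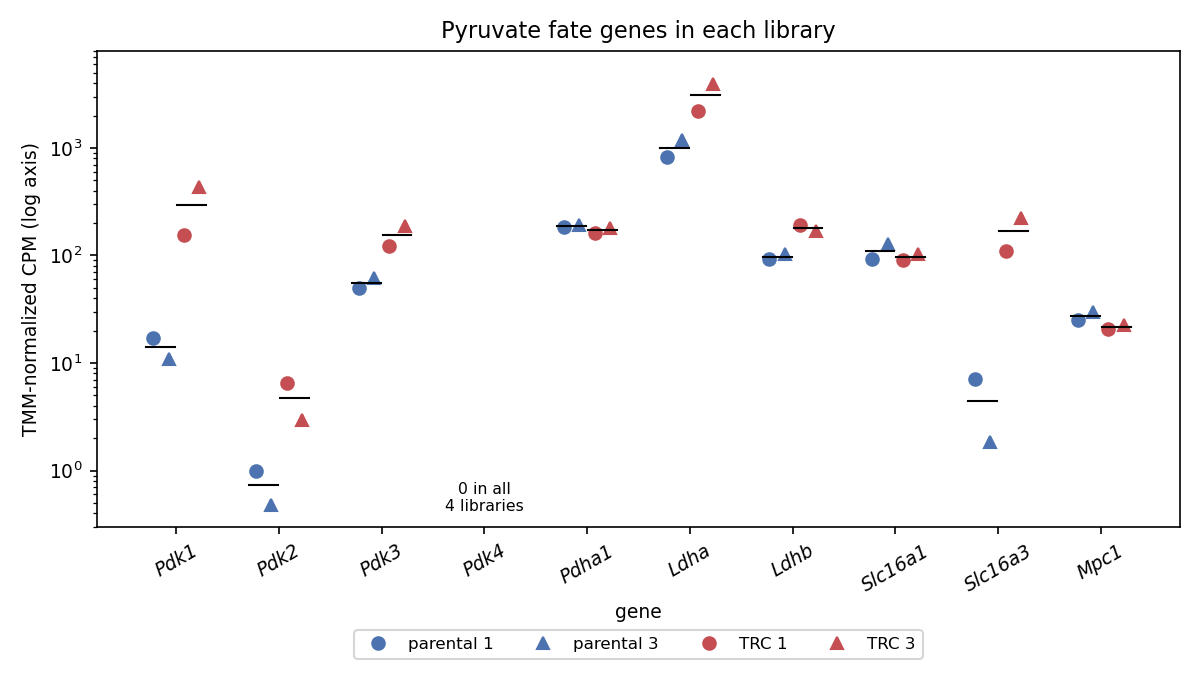
TMM-normalized CPM on a log axis for each of the 10 genes in each of the 4 libraries, with blue for parental cells and red for TRCs, circles for number 1, triangles for number 3 and short black lines for group means (n = 2). *Pdk1* and *Slc16a3* separate most, with all TRC values at or above 111 CPM and all parental values at or below 17.2 CPM, while *Pdha1*, *Slc16a1* and *Mpc1* stay close together and *Pdk4* is at 0.

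The 4 libraries held between 35948295 and 43511554 counts on genes, and alignments that were not unique, which were assigned to no gene, made up 15.2% to 25.2%, with the highest share in TRC replicate 3. All 7 melanocyte markers were detected. Their summed level was 18894 and 15694 CPM in parental replicates 1 and 3 and 23942 and 26640 CPM in TRC replicates 1 and 3. All 7 had a positive log2 fold change, as did 5773 of the 11483 genes tested. Of them 1, *Dct*, was called higher, at 2.11-fold (FDR = 0.000307 in edgeR's exact test), where 8.81% of all genes were called higher. Of 5 leukocyte markers 3 were at 0 in every library, among them *Ptprc*, and the list summed to between 1.75 and 4.34 CPM, while the 5 fibroblast and endothelial markers, with *Cdh5* at 0 in every library, summed to between 1.22 and 1.99 CPM.

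Among the kinases, *Pdk1* changed most. *Pdk1* (ENSMUSG00000006494, GRCm38 chr2:71873224-71903858, plus strand) had 17.2 and 11.01 CPM in parental replicates 1 and 3, and 155 and 436 CPM in TRC replicates 1 and 3. The groups were far apart, and the lower TRC library exceeded the higher parental library 8.80-fold on the log2(CPM + 0.5) scale. From 14.1 ± 4.38 CPM (SD, n = 2) in parental cells to 296 ± 199 CPM (SD, n = 2) in TRCs, *Pdk1* rose 20.95-fold, a log2 fold change of 4.39 (SE 0.41 from DESeq2, FDR = 2.03e-19 in edgeR's exact test). Of all genes tested, 0.174% had a larger log2 fold change. Without TRC replicate 3 the *Pdk1* log2 fold change was 3.45.

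*Pdk3*, which encodes another of the kinase isoforms, started from a higher level. *Pdk3* (ENSMUSG00000035232, chrX:93764607-93832201, minus strand) had 50.0 and 62.0 CPM in parental replicates 1 and 3, and 123 and 187 CPM in TRC replicates 1 and 3. Both TRC libraries were above both parental libraries, with pairwise folds from 1.98 to 3.72. The change was 2.77-fold, a log2 fold change of 1.47 (SE 0.27 from DESeq2, FDR = 1.56e-06 in edgeR's exact test).

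*Pdk2*, which encodes a broadly expressed isoform, was scarce. *Pdk2* (ENSMUSG00000038967, chr11:95026258-95041354, minus strand) had 44 and 17 counts in the parental libraries, numbers 1 and 3, and 272 and 123 in the TRC libraries, which is 0.989, 0.481, 6.54 and 2.95 CPM. The groups did not overlap, but the TRC libraries differed from each other more than 2-fold. *Pdk2* rose 6.38-fold, a log2 fold change of 2.67 (SE 0.63 from DESeq2, FDR = 0.000138 in edgeR's exact test), and leaving out single libraries gave log2 fold changes from 1.97, without TRC replicate 1, to 3.29, without parental replicate 1. *Pdk4*, the isoform best known for induction by fasting and fatty acids, had 0 counts in all 4 libraries, which at these depths allows up to between 0.0674 and 0.0849 CPM per library for counting error only.

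Taken as a pool, the kinase transcripts increased and their make-up shifted towards *Pdk1*. To compare genes with each other, CPM was divided by the length of a gene's merged exons in kilobases. The summed level of *Pdk1* to *Pdk4* on this scale was 22.0 and 25.8 CPM per kb in parental replicates 1 and 3 and 70.2 and 130 CPM per kb in TRC replicates 1 and 3. *Pdk1* made up 10.04% and 5.49% of the pool in the parental replicates and 28.4% and 43.1% in the TRC replicates. *Pdk3* fell as a share from 88.5% and 93.9% to 68.6% and 56.2%, although its own level was higher in TRCs. Which isoform leads in TRCs depends on the length used, since *Pdk1* has 7779 bases of merged exons but 1302 of coding sequence, and *Pdk3* has 2561 and 1245. The *Pdk1* to *Pdk3* ratio in TRC replicates 1 and 3 was 0.415 and 0.767 per kb of merged exons but 1.20 and 2.23 per kb of coding sequence, while in parental cells *Pdk3* led on both scales, with ratios of 0.113 and 0.0585 on the first and 0.329 and 0.170 on the second. No test was run on such within-library ratios, since 2 against 2 libraries cannot give a two-sided permutation p under 0.333.

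**Figure D2:**
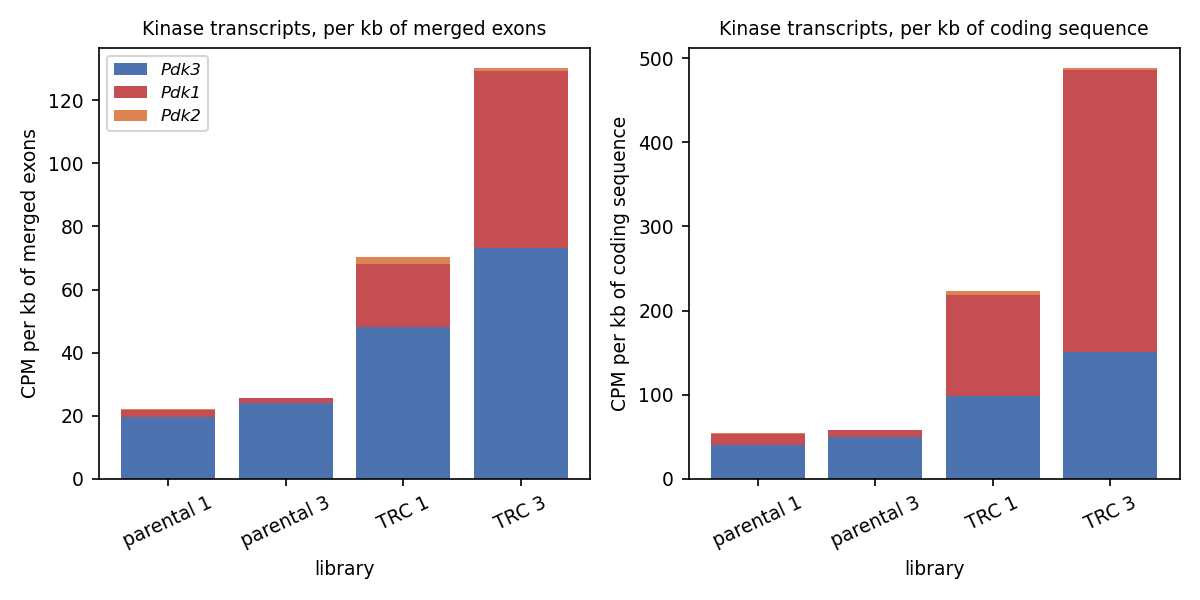
Stacked bars of the kinase transcripts in each library, in CPM per kb of merged exons on the left and of coding sequence on the right, with *Pdk3* in blue, *Pdk1* in red and *Pdk2* in orange (*Pdk4* is at 0). The pool is larger in both TRC libraries than in both parental libraries on either scale, and the red share grows from at most 10.04% to at least 28.4% on the left and from at most 24.4% to at least 53.3% on the right.

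The kinases' substrate and the rest of the PDH complex did not follow. *Pdha1* (ENSMUSG00000031299, chrX:160122209-160138413, minus strand) had 184 and 191 CPM in parental replicates 1 and 3 and 162 and 180 CPM in TRC replicates 1 and 3. The TRC values were lower but close to the parental ones, and the log2 fold change of −0.13 (SE 0.19 from DESeq2, FDR = 0.759 in edgeR's exact test) did not pass, with a 95% interval from DESeq2 of 0.704-fold to 1.19-fold. *Pdha1* shares exon bases with *Map3k15* on the other strand, and the strand setting of the counting is not stated. *Map3k15* had 39.9 and 29.8 CPM in parental replicates 1 and 3 and 41.0 and 55.6 CPM in TRC replicates 1 and 3. Its part in the *Pdha1* counts was not tested. For the other subunits *Pdhb*, *Dlat* and *Dld* and the E3-binding protein *Pdhx* the log2 fold changes were −0.038, −0.43, −0.33 and −0.54, and none passed. *Pdhx* had the smallest FDR of these, 0.106 in edgeR's exact test. It had 44.0 and 53.3 CPM in parental replicates 1 and 3 and 32.4 and 34.2 CPM in TRC replicates 1 and 3. For *Dlat*, *Dld* and *Pdhx* both TRC libraries lay below both parental libraries, as for 30.4% of all genes tested. The 95% intervals from DESeq2, not adjusted for the number of genes, were 0.565-fold to 0.982-fold for *Dlat* and 0.502-fold to 0.936-fold for *Pdhx*. For *Dld* and *Pdhb* they were 0.619-fold to 1.02-fold and 0.749-fold to 1.27-fold. *Pdha1* transcripts exceeded the kinase pool 2.23-fold and 1.98-fold in parental replicates 1 and 3, and were 0.618 and 0.371 of it in those of TRCs, per kb of merged exons.

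The phosphatases that oppose the kinases showed no difference that passed the test. *Pdp1* had 11.5 and 7.02 CPM in parental replicates 1 and 3 and 8.19 and 7.39 CPM in TRC replicates 1 and 3, and *Pdp2* had 11.8, 19.1, 22.9 and 13.7 CPM in the same order. Both overlapped between the groups, as did the regulatory subunit gene *Pdpr*, and their log2 fold changes were −0.25 for *Pdp1*, 0.24 for *Pdp2* and −0.12 for *Pdpr*. The ratio of the *Pdk* pool to *Pdp1* plus *Pdp2* was 4.76 and 5.24 in parental replicates 1 and 3 and 12.0 and 32.2 in those of TRCs, per kb of merged exons.

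Both lactate dehydrogenase genes rose. *Ldha* (ENSMUSG00000063229, chr7:46841475-46855627, plus strand), which encodes the subunit that predominates in skeletal muscle and in many tumors, had 815 and 1178 CPM in parental replicates 1 and 3 and 2197 and 3959.9 CPM in TRC replicates 1 and 3. All TRC values were above all parental values, with pairwise folds from 1.86 to 4.86. The change was 3.09-fold, a log2 fold change of 1.63 (SE 0.31 from DESeq2, FDR = 8.98e-06 in edgeR's exact test). The processed pseudogenes *Ldha-ps* and *Ldha-ps2* held at most 8 counts in any library. Alignments that were not unique were assigned to no gene, and their share was highest in TRC replicate 3, the library with the most *Ldha*; its part in the result was not tested.

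*Ldhb* (ENSMUSG00000030246, chr6:142490249-142507957, minus strand), which encodes the heart-type subunit, had 93.0 and 102 CPM in parental replicates 1 and 3 and 191 and 170 CPM in TRC replicates 1 and 3. The replicates of each group were close and the groups were separate. *Ldhb* rose 1.85-fold, a log2 fold change of 0.89 (SE 0.20 from DESeq2, FDR = 0.00211 in edgeR's exact test), and without TRC replicate 1 its FDR was 0.0803. The *Ldha* to *Ldhb* ratio per kb of merged exons was 4.16 and 5.47 in parental replicates 1 and 3 and 5.46 and 11.05 in those of TRCs. TRC replicate 1 thus lay within the parental range in this ratio, and the groups overlapped. Per kb of coding sequence the ratio was 8.11 and 10.67 in the parental libraries and 10.65 and 21.5 in the TRC libraries. The change of length scales every library by the same factor, so the overlap on this scale follows from the first. The testis gene *Ldhc* had 0 counts in every library, and the D-lactate dehydrogenase gene *Ldhd* had 9.08 and 2.86 CPM in parental replicates 1 and 3 and 9.59 and 6.72 CPM in TRC replicates 1 and 3, which overlapped.

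The monocarboxylate carriers parted. *Slc16a3* (ENSMUSG00000025161, chr11:120948480-120960868, plus strand), whose product MCT4 is the carrier of strongly glycolytic cells, had 317 and 65 counts in the parental libraries, numbers 1 and 3, and 4605 and 9343 in the TRC libraries, which is 7.12, 1.84, 111 and 224 CPM. The parental libraries differed 3.87-fold from each other, yet the lower TRC library exceeded the higher parental one 14.6-fold on the log2(CPM + 0.5) scale. *Slc16a3* rose 37.2-fold, a log2 fold change of 5.22 (SE 0.97 from DESeq2, FDR = 1.10e-17 in edgeR's exact test), the largest of the 10 genes and rank 9 among all genes tested. The size depends on single libraries of both groups. The log2 fold change was 6.51 without parental replicate 1 and 4.56 without parental replicate 3. It was 5.62 without TRC replicate 1 and 4.61 without TRC replicate 3. With all libraries the 95% interval from DESeq2 was wide, from 9.98-fold to 141-fold.

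*Slc16a1* (ENSMUSG00000032902, chr3:104638668-104658462, plus strand), whose product MCT1 is the widespread carrier, had 92.2 and 129 CPM in parental replicates 1 and 3 and 90.7 and 102 CPM in TRC replicates 1 and 3. The groups overlapped and the log2 fold change of −0.19 (SE 0.24 from DESeq2, FDR = 0.657 in edgeR's exact test) did not pass, with a 95% interval from DESeq2 of 0.630-fold to 1.21-fold. *Slc16a3* accounted for 6.04% and 1.18% of the summed *Slc16a1* and *Slc16a3* level per kb of merged exons in parental replicates 1 and 3, and for 50.4% and 64.6% in those of TRCs. On the same scale the sum was 22.2 and 29.4 CPM per kb in parental replicates and 41.3 and 65.3 CPM per kb in TRC replicates, and the *Slc16a1* level itself was not higher. The carrier gene *Slc16a7* (MCT2) held between 6 and 60 counts and was removed by the filter.

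*Bsg*, which encodes basigin, the chaperone that brings MCT1 and MCT4 to the cell surface, had 324 and 335 CPM in parental replicates 1 and 3 and 681 and 1387 CPM in TRC replicates 1 and 3. The parental values were nearly equal and both TRC values lay above them. *Bsg* rose 3.14-fold, a log2 fold change of 1.65 (SE 0.31 from DESeq2, FDR = 7.56e-06 in edgeR's exact test), and the log2 fold change was 1.04 without TRC replicate 3. *Emb*, which encodes embigin, the partner of MCT2, had a log2 fold change of −0.16 and did not pass.

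For the entry of pyruvate into mitochondria no gene passed the test. *Mpc1* (ENSMUSG00000023861, chr17:8282904-8297661, plus strand) had 25.1 and 29.6 CPM in parental replicates 1 and 3 and 20.8 and 22.5 CPM in TRC replicates 1 and 3. Both TRC values were below both parental values, but the log2 fold change of −0.34 (SE 0.24 from DESeq2, FDR = 0.453 in edgeR's exact test) did not pass, with a 95% interval from DESeq2 of 0.569-fold to 1.11-fold. Its partner *Mpc2* had a log2 fold change of 0.31 and did not pass either. The *Mpc1* to *Mpc2* ratio per kb of merged exons was 3.51 and 4.64 in parental replicates 1 and 3 and 2.47 and 2.70 in those of TRCs. The order of these genes depends on the length used, since *Mpc2* has 7344 bases of merged exons but 395 of coding sequence, and per kb of coding sequence the ratio was 0.672 and 0.889 in the parental libraries and 0.472 and 0.518 in the TRC libraries. *Mpc1* overlaps exon bases of *4930506C21Rik* on the other strand, which held at most 4 counts per library.

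**Figure D3:**
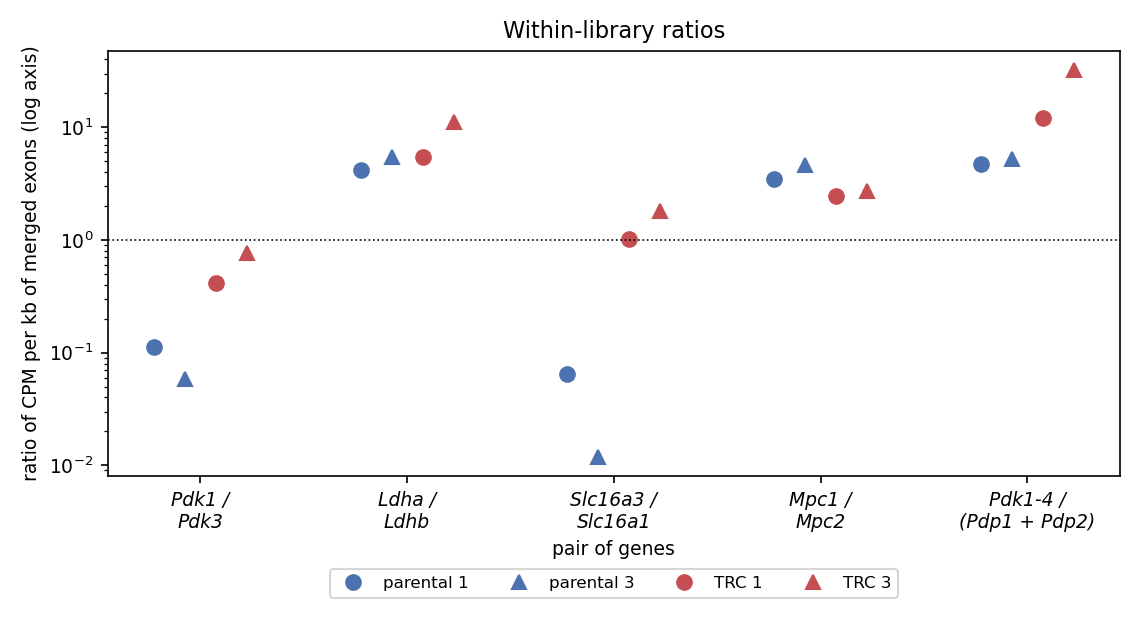
Ratios of CPM per kb of merged exons between pairs of genes within each library, on a log axis, with blue for parental cells, red for TRCs, circles for number 1, triangles for number 3 and a dotted line at 1. The *Slc16a3* to *Slc16a1* ratio moves furthest, from 0.0643 and 0.0119 in parental replicates to 1.02 and 1.83 in TRC replicates, while the *Ldha* to *Ldhb* ratio overlaps between the groups.

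The order of the 10 genes by level also differed between the groups. In parental cells the mean levels per kb of merged exons were 301 for *Ldha*, 62.2 for *Ldhb*, 50.2 for *Pdha1*, 24.9 for *Slc16a1*, 21.9 for *Pdk3*, 13.1 for *Mpc1*, 1.81 for *Pdk1*, 0.843 for *Slc16a3* and 0.232 for *Pdk2*. Of the neighbours in this order, *Slc16a1* and *Pdk3* overlapped between libraries, although *Slc16a1* stood above *Pdk3* within each parental library. In TRCs the means were 930.0 for *Ldha*, 115 for *Ldhb*, 60.6 for *Pdk3*, 45.8 for *Pdha1*, 38.0 for *Pdk1*, 31.5 for *Slc16a3*, 21.8 for *Slc16a1*, 10.4 for *Mpc1* and 1.499 for *Pdk2*. From *Pdk3* down to *Slc16a1* each gene overlapped its neighbour between libraries. Within each TRC library *Pdk3* stood above *Pdha1*, and *Slc16a3* stood above *Slc16a1*, though only at 20.8 against 20.5 in TRC replicate 1. *Pdk1* stood below *Pdha1*, *Slc16a3* and *Slc16a1* in TRC replicate 1 and above them in TRC replicate 3. The place of *Pdk1* in TRCs is therefore not settled by these libraries. The order also depends on the length used. Per kb of coding sequence, *Pdha1* stood above *Ldhb* in both parental libraries, and *Mpc1*, at 42.9 and 50.6, stood just above *Pdk3*, at 40.2 and 49.8. On that scale *Pdk1* in TRC replicate 3, at 335, stood above *Ldhb*, *Pdha1* and *Pdk3*, at 170, 154 and 150, whereas in TRC replicate 1, at 119, it stood above *Pdk3* at 99.1 but below *Pdha1* at 139 and *Ldhb* at 190.

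Of 26 other pyruvate genes, 20 were tested, and 4 were called higher, *Bsg*, *Pkm*, *Me1* and *Me2*, where 8.81% of all genes were called higher and 7.05% lower. None was called lower by edgeR's exact test (0 of 20), with 1, *Pdhx*, lower at an unadjusted p under 0.05 (1517 of 11483 over all genes) and 0 in the quasi-likelihood and DESeq2 tests. Their median log2 fold change was −0.047, against 0.0034 over all genes tested and 1.47 over the 9 members tested. *Pkm*, which encodes the muscle-type pyruvate kinase, had 2519 and 3372 CPM in parental replicates 1 and 3 and 4902 and 9242 CPM in TRC replicates 1 and 3, a log2 fold change of 1.26 (FDR = 0.00095 in edgeR's exact test). Without TRC replicate 3 the log2 fold change of *Pkm* was 0.73 and its FDR 0.129, and in the quasi-likelihood test its FDR was 0.0717. The malic enzyme gene *Me1*, whose cytosolic product makes pyruvate from malate, had 104 and 136 CPM in parental replicates and 208 and 217 CPM in TRC replicates, a log2 fold change of 0.82 (FDR = 0.00685 in edgeR's exact test), but its FDR was 0.104 without parental replicate 1, 0.0662 without TRC replicate 1 and 0.0864 without TRC replicate 3. For the mitochondrial *Me2* the groups overlapped, with 62.5 and 94.6 CPM in parental replicates and 93.0 and 207 CPM in TRC replicates (FDR = 0.0451 in edgeR's exact test). The *Me2* call was lost in the quasi-likelihood test, with FDR = 0.137, and in DESeq2's Wald test, with FDR = 0.055. In the exact test it was also lost with no filter (FDR = 0.0783), trended dispersions (FDR = 0.0769) and tagwise dispersions without a trend (FDR = 0.0935). The *Me2* log2 fold change was 0.93 with all libraries, 0.66 without parental replicate 1 and 0.24 without TRC replicate 3.

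**Figure D4:**
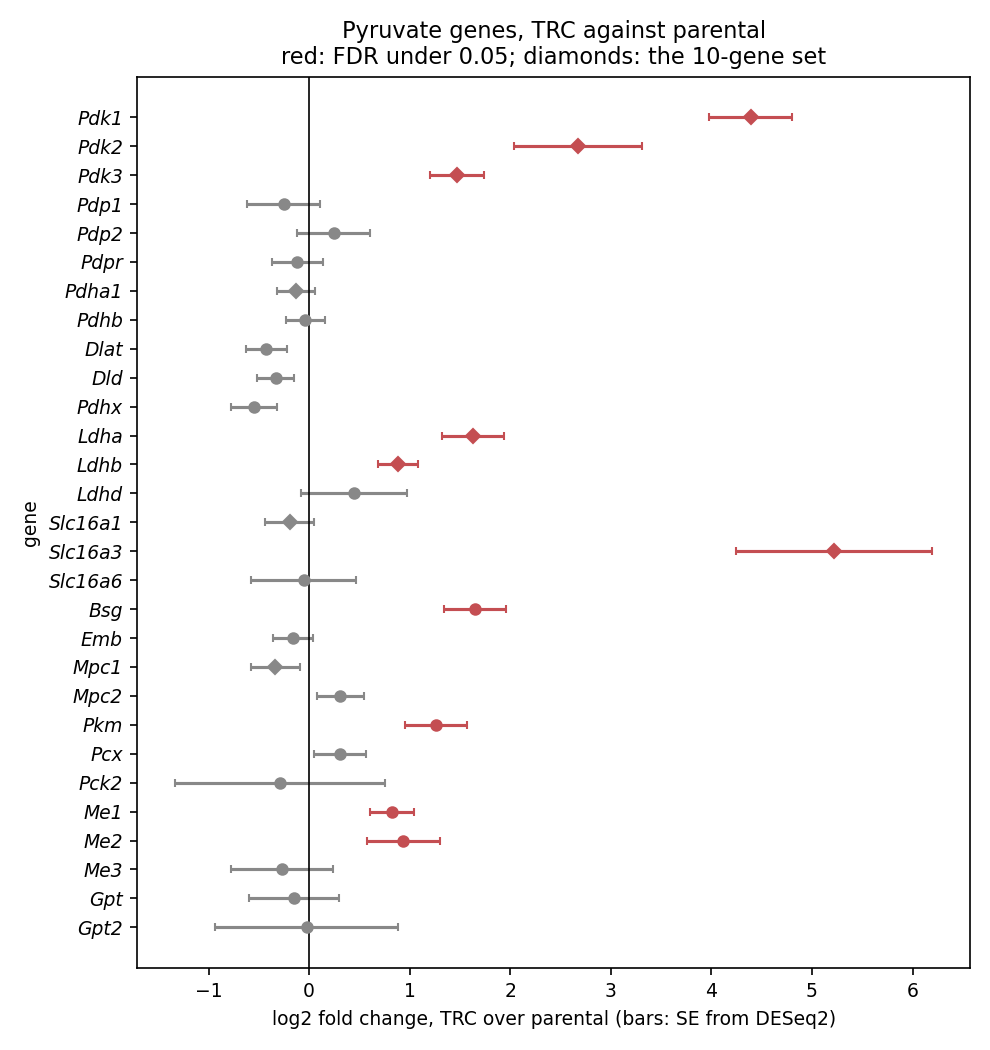
Log2 fold changes of TRC over parental for the 9 members tested (diamonds) and 20 other pyruvate genes (circles), ordered by role, with bars of 1 SE from DESeq2 (n = 2 per group) and red for FDR under 0.05 in edgeR's exact test. *Slc16a3* at 5.22 and *Pdk1* at 4.39 lie far to the right, whereas the subunits and phosphatases of the PDH complex lie between −0.54 and 0.24, all in grey.

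**Figure D5:**
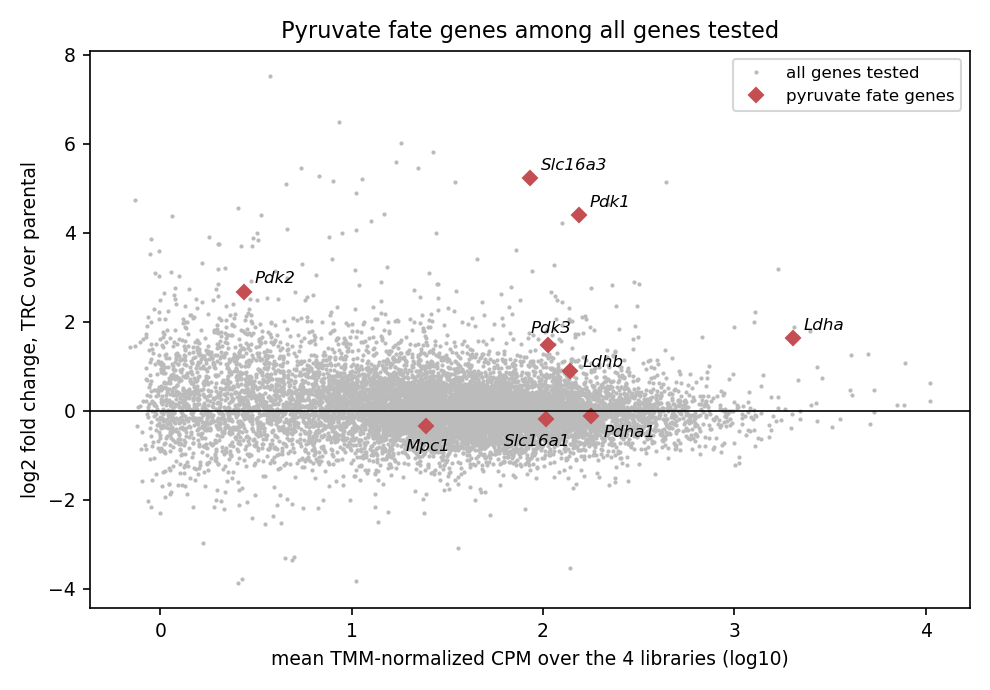
Log2 fold change against mean TMM-normalized CPM (log10) for the 11483 genes tested (grey), with the 9 tested members as red diamonds. *Slc16a3* and *Pdk1* lie above nearly all genes of a similar level, *Ldha* is among the most abundant genes, and *Pdha1*, *Slc16a1* and *Mpc1* lie near 0.

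Stretches upstream of RefSeq start sites are shown for the 3 members known as HIF-1 targets, and for *Slc16a1* as a member that did not pass the test, because they let the core letters of the HIF-binding element be compared. The sequences are from RefSeq on GRCm38.p6, 5′ to 3′ on the gene's strand, with matches to ACGTG or GCGTG on either strand in capitals, and overlapping matches, as in CACGTG, counted as 1 site. Where a gene has several windows, the first along the chromosome is shown. The stretches are chr2:71872974-71873223 for *Pdk1*, chr7:46845554-46845803 for *Ldha*, chr11:120948817-120949052 for *Slc16a3* and chr3:104638414-104638663 for *Slc16a1*, all on the plus strand. Those of *Ldha* and *Slc16a3* lie inside the gene as annotated by GENCODE, downstream of its first base, and hold no annotated exon base.
Pdk1: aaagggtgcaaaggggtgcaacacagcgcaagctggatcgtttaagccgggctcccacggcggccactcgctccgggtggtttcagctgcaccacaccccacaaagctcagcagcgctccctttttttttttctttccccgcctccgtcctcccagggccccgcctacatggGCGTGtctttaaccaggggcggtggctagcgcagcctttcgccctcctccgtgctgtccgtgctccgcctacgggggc
Ldha: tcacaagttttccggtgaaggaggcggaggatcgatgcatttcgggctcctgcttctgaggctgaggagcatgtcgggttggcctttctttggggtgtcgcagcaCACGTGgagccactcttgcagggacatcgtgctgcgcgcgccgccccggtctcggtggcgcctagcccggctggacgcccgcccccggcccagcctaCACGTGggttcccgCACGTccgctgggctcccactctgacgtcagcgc
Slc16a3: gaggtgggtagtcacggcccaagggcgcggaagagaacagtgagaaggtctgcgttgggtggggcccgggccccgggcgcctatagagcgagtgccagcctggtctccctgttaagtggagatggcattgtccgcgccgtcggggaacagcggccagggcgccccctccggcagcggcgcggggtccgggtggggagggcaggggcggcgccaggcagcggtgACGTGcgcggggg
Slc16a1: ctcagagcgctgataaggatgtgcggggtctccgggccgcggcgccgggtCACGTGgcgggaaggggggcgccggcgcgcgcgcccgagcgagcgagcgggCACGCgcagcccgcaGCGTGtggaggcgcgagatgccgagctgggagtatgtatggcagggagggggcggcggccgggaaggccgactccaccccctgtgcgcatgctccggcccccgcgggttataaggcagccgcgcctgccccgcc
*Pdk1* held 1 site, *Ldha* 3 sites of which 2 were CACGTG, and *Slc16a3* 1 site, with a further ACGTG in the last bases before its start that belong to an annotated exon and are not shown. *Slc16a1* held 3 sites, of which 1 was CACGTG. In the 250 bases before the start sites of the RefSeq table, 38.6% of 32851 windows held at least 1 site and 4.65% held 3 or more. CACGTG was present in 6.02% of these windows. The members had 14 windows in that table, of which 11 held a site, and the windows without one were second windows of *Pdk1*, *Pdk2* and *Mpc1*. Each of the 10 members had a site in at least 1 window, including *Pdha1*, *Slc16a1* and *Mpc1*, which did not pass, and *Pdk4*, which was not tested. The share of all genes with a site in any of their windows was not computed, so this count has no matching background. The letters therefore did not separate the members called higher from the other members, and a match shows only that the letters are present.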

How the data were processed

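Per the study's methods and the labels, the authors prepared stranded poly(A) libraries, sequenced them in single-end format, used Trimmomatic 0.35 for trimming and TopHat2 2.1.0 (Bowtie2 2.2.6, SAMtools 1.3) for alignment to GRCm38, and obtained gene counts with htseq-count, whose strand setting is not given in the sources used here. The deposited values are raw counts per gene and library, not normalized, with totals that name no gene. These totals were removed here. Reads on no gene made up 2.94% to 4.25% and ambiguous reads 0.825% to 0.955%.

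Following the study's methods, a gene was removed if 3 or more of the 4 libraries fell below 1 CPM, which left 11483 (not the number of genes the study lists as tested), TMM factors (0.957 to 1.04) were computed, and groups were compared with edgeR 4.0.16 (R 4.3.3) by the exact test, using tagwise dispersions after the common one, and a prior count of 0.125, at FDR under 0.05. SEs and 95% intervals came from DESeq2 1.42.0. Names, positions and lengths came from GENCODE M21 (GRCm38), in which 37607 identifiers were found. Floors are 3 counts and cover counting error only. The code of the exact, quasi-likelihood and DESeq2 tests was checked on simulated counts with known changes. Plots used matplotlib 3.10.9 under Python 3.11.15.

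The members and lists were chosen with earlier results of these data known. All 10 members were named, as well as, of the other pyruvate genes, those past FDR 0.05 and the direct partners of members. *Ldhc*, *Ldhd*, *Slc16a7*, *Pck2*, *Gpt2* and *Slc16a6* were named in addition, after their values were seen. The alternatives were the quasi-likelihood test, that test with a replicate block, DESeq2's Wald test, DESeq2 size factors, library size only, 3 other filters, trended dispersions, no prior count, coding length and each library left out in turn. Tagwise dispersions without a trend were added after the data were examined.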

Additional observations from a re-analysis of the deposited data

How the results depend on the processing

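The 6 members called higher were the same genes under each alternative that kept all libraries, and no member was called lower under any. The settings not described with the results called between 4.15% and 9.13% of all genes higher and between 2.68% and 7.52% lower. With each library left out in turn, where the lone library of a group is assumed to vary like the other group, 5 to 6 members were called higher, *Ldhb* being lost without TRC replicate 1. Among other pyruvate genes, 2 were called higher in the quasi-likelihood test and 1 (*Bsg*, without TRC replicate 3) to 5 (without parental replicate 1, *Ldhd*, *Pck2* and *Gpt2* joining) with a library left out, and 0 to 1 were called lower, namely *Pck2* without parental replicate 3. Among the members and their partners, the log2 fold change changed sign with a library left out for *Slc16a1* (−0.41 to 0.065), *Pdhb* (−0.091 to 0.017), *Pdp1* (−0.57 to 0.15), *Pdp2* (−0.19 to 0.63) and *Pdpr* (−0.37 to 0.077), none of which was called under any of these. *Pck2* and *Gpt2*, both negative and not called with all libraries, were called higher without parental replicate 1, and the cause was not tested.

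The numbers 1 and 3 are shared by both groups, but nothing says that they pair samples, and deviations of same-numbered libraries correlated with r = 0.027 across genes. With the replicate block the quasi-likelihood test called 6 members and 3 other pyruvate genes higher, losing *Me2* (log2 fold change 0.85, FDR = 0.0576), and called 4.15% of all genes higher and 2.68% lower. Without the block it called 4.94% and 4.24%. DESeq2 size factors moved the median log2 fold change of all genes by 0.0012 and library size only by −0.0277.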

Other observations

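Several of the genes that rose differed between the TRC libraries, and not all in the same direction. TRC replicate 3 exceeded TRC replicate 1 by 2.81-fold for *Pdk1*, 2.03-fold for *Slc16a3*, 1.80-fold for *Ldha* and 1.52-fold for *Pdk3*, and by 2.04-fold for *Bsg* and 1.89-fold for *Pkm*. Of the genes that rose less or not at all, *Me2*, with a log2 fold change of 0.93, differed 2.23-fold in this direction. The carrier gene *Slc16a6*, with a log2 fold change of −0.056, differed 3.34-fold. Of all genes tested, 0.427% differed more in this direction than *Pdk1*, 1.52% more than *Slc16a3*, 2.39% more than *Ldha* and 4.96% more than *Pdk3*. For *Me2* and *Slc16a6* these shares were 1.16% and 0.331%. *Pdk2* went the other way, with a level in TRC replicate 3 that was 0.452 of that in TRC replicate 1, as did *Ldhb*, with 0.891. For *Pdha1*, *Slc16a1* and *Mpc1* the TRC libraries differed 1.11-fold, 1.13-fold and 1.08-fold.

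In parental cells the order was different. Parental replicate 1 exceeded parental replicate 3 by 3.87-fold for *Slc16a3*, 2.05-fold for *Pdk2* and 1.56-fold for *Pdk1*. Of all genes tested, 0.523% differed more in this direction than *Slc16a3*, 10.5% more than *Pdk2* and 9.91% more than *Pdk1*. The other tested members were lower in parental replicate 1. Their levels there were 0.692 of those in parental replicate 3 for *Ldha*, 0.717 for *Slc16a1* and 0.807 for *Pdk3*. For *Mpc1*, *Ldhb* and *Pdha1* they were 0.848, 0.911 and 0.963. TRC replicate 3 also had the highest share of alignments that were not unique, 25.2% against 18.3% in TRC replicate 1, and its part in these differences was not tested.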
